A study of Homo sapiens with 6 samples.

Results

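The BTG and TOB genes encode a small family of antiproliferative proteins, and they are described here together with the deadenylases that the proteins bind. The 9 genes were chosen by symbol: BTG1, BTG2, BTG3, TOB1 and TOB2, and the catalytic CNOT genes CNOT6, CNOT6L, CNOT7 and CNOT8. All 9 were among the 56638 gene symbols listed in the count tables, and all 9 were among the 14685 genes with enough reads to be tested. They were chosen with results of the same comparison known, in particular the rise of BTG2, so their values are a description and not independent evidence, and no test was run over them as a set.

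RNA sequencing had been done on 6 libraries of cells labelled HT29, an established human colorectal cancer line, at a labelled passage of 16-19. The libraries fall into 3 from cells transfected with an siRNA against RNF6, labelled RNF6 knockdown, and 3 from cells given a nonspecific siRNA, labelled wild type; control. RNF6 is a RING-type ubiquitin ligase, and the comparison asks which transcripts differ once it is depleted. How many siRNAs were used and when cells were harvested is not given in the sources used here. No label says that the replicates were separate cultures, so p-values measure a spread among these 6 libraries that may be technical.

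BTG and TOB proteins share an amino-terminal domain that binds the CNOT7 and CNOT8 deadenylases. CNOT7 or CNOT8 pairs in turn with CNOT6 or CNOT6L inside the CCR4-NOT complex, which shortens the poly(A) tails of messenger RNAs and so speeds their decay. TOB1 and TOB2 also bind cytoplasmic poly(A)-binding protein through motifs in their longer carboxy-terminal parts. BTG2 is known as a gene induced early after growth stimuli, and forced expression of BTG or TOB proteins slows the entry of cells into S phase.

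Reads assigned to genes ranged from 6808771 to 11071456 per library in RNF6 siRNA cells and from 7173957 to 9366532 in Control siRNA cells. Single members had between 213 and 2235 reads in a library. RNF6 itself, the targeted gene, was at 16.5, 16.2 and 16.9 CPM, read counts scaled to the library total, in the RNF6 siRNA libraries, against 54.3, 45.2 and 57.8 CPM in the Control siRNA libraries. Of 11 markers of colon epithelium, 7 were tested. EPCAM was at 226.7 ± 15.04 CPM in RNF6 siRNA libraries and 218.0 ± 9.91 CPM in Control siRNA libraries (SD, n = 3), and the most abundant marker was the keratin gene KRT8. The markers VIL1, LGALS4 and GPA33 were below 1 CPM in every library and CDX1 was listed at 0, so these 4 markers of the labelled cell type were absent or nearly so, and the identity of the cells was not checked further. Summed over the list, these markers reached 2445 to 2829 CPM in RNF6 siRNA libraries and 4352 to 5653 CPM in Control siRNA libraries. KRT8, KRT18 and KRT19 were called 2.44-fold, 3.07-fold and 1.51-fold lower. KRT20 was called 3.04-fold lower at a low level, 0.633 ± 0.192 CPM in RNF6 siRNA and 1.99 ± 0.534 CPM in Control siRNA libraries. Of the 7 tested, 57.1% were called, beside 32.7% of all genes tested. Of 10 markers of leukocytes, endothelium, fibroblasts, smooth muscle, red cells and liver, 3 were tested. COL1A1, the most abundant of these, was called 1.33-fold higher and ACTA2 2.17-fold higher, and VWF was called 2.02-fold lower. ACTA2 was at a low level, 4.97 ± 1.02 CPM in RNF6 siRNA libraries and 2.31 ± 0.756 CPM in Control siRNA libraries. COL1A1 was not called without RNF6 siRNA replicate 1 or 3 or Control siRNA replicate 3, with adjusted p of 0.0690, 0.0727 and 0.0793. VWF, at about 1 to 2 CPM, was not called with DESeq2 (adjusted p = 0.109), nor without RNF6 siRNA replicate 1 or 3 or Control siRNA replicate 2 or 3 (0.0630 to 0.122). CD68 and PECAM1 were listed at 0. The 10 markers summed to 75.1 to 90.4 CPM in RNF6 siRNA libraries and 53.1 to 69.3 CPM in Control siRNA libraries. The part of these marker levels in the members' differences was not tested, and in bulk RNA fewer cells of a type and less RNA per cell cannot be told apart.

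Among the 9 members, 4 were called higher and 2 lower after RNF6 siRNA, and 3 were not called. Genes were called where the adjusted p of an edgeR quasi-likelihood fit over all genes tested was below 0.05. The same rule called 32.7% of all genes tested, 16.6% higher and 16.1% lower. For 7 members the groups did not overlap in any library, 5 higher and 2 lower, against 44.2% of all genes tested, 22.4% higher and 21.8% lower. The median log2 fold change of the 9 was 0.12, beside 0.01 for all genes tested. Without Control siRNA replicate 3, 2 members were called higher and 1 lower. Since the comparison was known when the members were chosen, nothing is read from these counts.

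**Figure D1:**
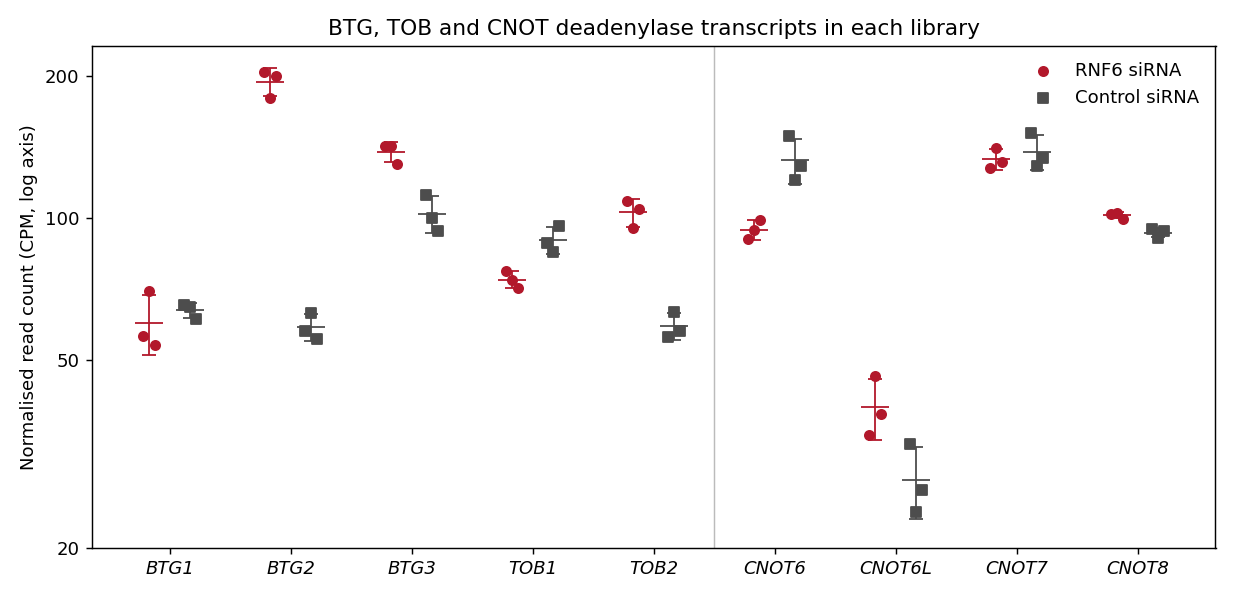
Normalised read counts (CPM, log axis) of the 9 members in each library, with RNF6 siRNA libraries as red circles left of Control siRNA libraries as grey squares. Horizontal marks are means and bars are SD over 3 libraries. BTG2 and TOB2 stand clear of their controls, at means of 194.6 and 102.8 CPM against 58.7 and 59.0 CPM.

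BTG2 differed most of the 9. It had 203.8, 179.6 and 200.4 CPM in RNF6 siRNA replicates 1, 2 and 3, against 57.6, 62.9 and 55.5 CPM in Control siRNA replicates 1, 2 and 3. The lowest RNF6 siRNA library lay far above the highest Control siRNA library. Its mean was 194.6 ± 13.1 CPM in RNF6 siRNA and 58.7 ± 3.82 CPM in Control siRNA libraries (SD, n = 3), a 3.32-fold higher level (log2 fold change 1.73, SE 0.103). Of all genes tested, 42 had a larger positive log2 fold change. The values rest on 1217 to 2235 reads per RNF6 siRNA library and 419 to 562 per Control siRNA library. The spread within each group was close to equal, with coefficients of variation of 6.72% and 6.51%. No annotated exon of another gene overlaps BTG2, and it shares no run of 50 bases with another annotated transcript.

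The 250 bases before the BTG2 start site are shown because BTG2 carries the largest difference, and those before TOB2 because TOB2 was the next most raised member. Both are RefSeq sequences on GRCh38.p14, another build than that of the counts, written 5′ to 3′ along the gene. BTG2 lies at chr1:203305269-203305518 on the plus strand and TOB2 at chr22:41446802-41447051 on the minus strand. Capitals mark a CCAAT box (CCAAT), GC boxes (GGGCGG) and the core of the cAMP response element (TGACG), each searched on both strands, and no marked match overlaps another.
BTG2: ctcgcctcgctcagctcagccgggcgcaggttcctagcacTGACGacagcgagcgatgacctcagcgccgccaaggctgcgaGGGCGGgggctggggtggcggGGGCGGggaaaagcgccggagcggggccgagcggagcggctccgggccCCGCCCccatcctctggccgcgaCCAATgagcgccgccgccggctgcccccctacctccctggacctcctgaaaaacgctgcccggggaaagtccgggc
TOB2: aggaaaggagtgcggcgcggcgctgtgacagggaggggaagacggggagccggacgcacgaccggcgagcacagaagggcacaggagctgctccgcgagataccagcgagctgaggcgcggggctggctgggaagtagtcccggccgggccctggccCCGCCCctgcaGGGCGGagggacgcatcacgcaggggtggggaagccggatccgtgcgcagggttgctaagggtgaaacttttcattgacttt

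The BTG2 window held 3 GC boxes, 1 CCAAT box and 1 TGACG match at a GC content of 74.8%. The TOB2 window held 2 GC boxes and neither of the other motifs, at 68.4% GC. Neither held a TATA box (TATAAA). Among 35116 RefSeq promoter windows of 300 bases, 45.0% held a GC box, 34.6% a CCAAT box, 24.6% a TGACG match and 11.5% a TATA box. BTG1 was the member with a TATA box among the 8 whose promoters were searched. TOB1, called lower, has 2 listed windows of 300 bases. The second held 3 GC boxes, 1 CCAAT box and 1 TGACG match, as BTG2 did, and the first held none. CNOT6, also called lower, held 3 GC boxes and 1 CCAAT box in its 300 bases. BTG3, called higher, held 3 GC boxes and neither of the other motifs. The part of these motifs in the members' differences was not tested. These matches are letters in a window and are not shown to be bound.

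TOB2, the paralogue of TOB1, rose. It had 109, 95.2 and 104.4 CPM in RNF6 siRNA replicates 1, 2 and 3, against 56.0, 63.2 and 57.7 CPM in Control siRNA replicates 1, 2 and 3. The groups did not overlap. The difference was 1.74-fold (log2 fold change 0.80, SE 0.105, adjusted p = 1.11e-04 in the edgeR fit), several times the spread between replicates. TOB2 exons are free of annotated exons of other genes, although 7.67% of the 50-base runs of its longest transcript recur in another annotated gene, AC007228.1.

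TOB1, the better studied of the pair, went the other way by a small amount. Its level was 77.1, 73.8 and 71.0 CPM in RNF6 siRNA replicates 1, 2 and 3, against 88.7, 84.7 and 96.0 CPM in Control siRNA replicates 1, 2 and 3. Every RNF6 siRNA library was below every Control siRNA library. The log2 fold change of TOB1 was −0.28 (SE 0.101), a level 1.21-fold lower, and its adjusted p in the edgeR fit was 0.0483, just under the threshold. The call ended without Control siRNA replicate 3 (adjusted p = 0.207), without RNF6 siRNA replicate 1 (0.0688), 2 (0.101) or 3 (0.173), with DESeq2 (0.0568), with upper-quartile scaling (0.0639) and with no low-count filter (0.0893). In GENCODE release 29, 11.1% of TOB1 exon sequence lies under the antisense gene TOB1-AS1, which had 2 to 4 reads in each library.

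BTG3, known to bind the E2F1 transcription factor and the checkpoint kinase CHEK1, was higher in all RNF6 siRNA libraries. It had 142.1, 142.3 and 130.3 CPM in RNF6 siRNA replicates 1, 2 and 3, against 112.1, 100.2 and 94.0 CPM in Control siRNA replicates 1, 2 and 3. The groups did not overlap. BTG3 rose 1.35-fold (log2 fold change 0.44, SE 0.102, adjusted p = 0.00591 in the edgeR fit). The call ended without Control siRNA replicate 3 (log2 fold change 0.37, adjusted p = 0.0610). An antisense gene overlaps 12.1% of BTG3 exon sequence. With no strand setting or annotation release stated, it is not known how reads in the overlap were counted.

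BTG1, the closest relative of BTG2 and a gene linked to quiescence in lymphocytes, did not follow BTG2. Its level was 56.2, 70.1 and 53.8 CPM in RNF6 siRNA replicates 1, 2 and 3, against 65.3, 64.7 and 61.1 CPM in Control siRNA replicates 1, 2 and 3. RNF6 siRNA replicate 2 was the highest of the 6 and the other RNF6 siRNA libraries were the lowest, so the groups overlapped. The log2 fold change was −0.09 (SE 0.118, adjusted p = 0.589 in the edgeR fit). LINC01619 on the same strand and AC025164.1 on the opposite strand together cover 17.1% of BTG1 exon sequence. BTG4, the remaining family gene and known from oocytes, had 1 read in all 6 libraries together.

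**Figure D2:**
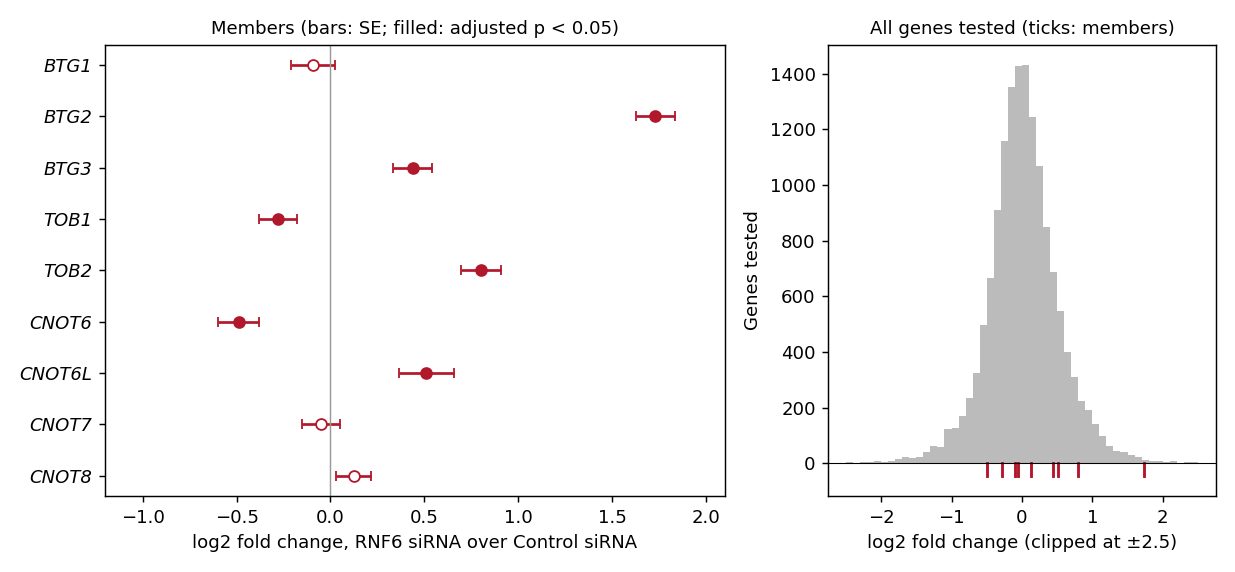
Left, log2 fold change of each member, RNF6 siRNA over Control siRNA, with SE bars and filled points for an adjusted p below 0.05 in the edgeR fit. Right, the same quantity for all 14685 genes tested, with red ticks at the members. BTG2, at 1.73, is far out on the right, and BTG1, CNOT7 and CNOT8 lie near 0.

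CNOT6 and CNOT6L, alternative nucleases of the CCR4 type in the complex, moved in opposite directions. CNOT6 had 90.2, 94.2 and 99.2 CPM in RNF6 siRNA replicates 1, 2 and 3, against 149, 120.4 and 129 CPM in Control siRNA replicates 1, 2 and 3. All RNF6 siRNA libraries were below all Control siRNA libraries, and Control siRNA replicate 1 was the highest. CNOT6 fell 1.40-fold (log2 fold change −0.49, SE 0.107, adjusted p = 0.00389 in the edgeR fit). Without Control siRNA replicate 1 the log2 fold change was −0.41 (adjusted p = 0.00299). CNOT6L had 34.7, 46.2 and 38.4 CPM in RNF6 siRNA replicates 1, 2 and 3, against 33.2, 23.8 and 26.6 CPM in Control siRNA replicates 1, 2 and 3. The groups did not overlap, but the lowest RNF6 siRNA library lay close to the highest Control siRNA library. CNOT6L was 1.42-fold higher (log2 fold change 0.51, SE 0.147, adjusted p = 0.0176 in the edgeR fit).

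CNOT6L rested on the fewest reads, 313 to 428 per RNF6 siRNA library and 213 to 249 per Control siRNA library. RNF6 siRNA replicate 2, the library with the fewest assigned reads, held its highest level. CNOT6L was no longer called when RNF6 siRNA replicate 2 (log2 fold change 0.40, adjusted p = 0.0831), RNF6 siRNA replicate 3 (0.53, adjusted p = 0.0572) or Control siRNA replicate 3 (0.47, adjusted p = 0.0882) was left out. CNOT6 and CNOT6L share no run of 50 bases with each other. The pseudogene CNOT6LP1 shares 7.23% of the 50-base runs of CNOT6L and had 10 to 22 reads in a library.

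CNOT7 and CNOT8, the CAF1-type deadenylases that BTG and TOB proteins contact directly, were not called. CNOT7 had 127.8, 140.9 and 131.7 CPM in RNF6 siRNA replicates 1, 2 and 3, against 151.2, 128.7 and 134.3 CPM in Control siRNA replicates 1, 2 and 3. The groups overlapped, with a log2 fold change of −0.05 (SE 0.10, adjusted p = 0.745 in the edgeR fit). CNOT8 had 102.2, 102.7 and 99.7 CPM in RNF6 siRNA replicates 1, 2 and 3, against 94.9, 90.8 and 93.8 CPM in Control siRNA replicates 1, 2 and 3. The groups did not overlap, yet the difference was 1.09-fold (log2 fold change 0.12, SE 0.0938, adjusted p = 0.335 in the edgeR fit). CNOT8 had the tightest replicates of the 9, with coefficients of variation of 1.59% in RNF6 siRNA and 2.30% in Control siRNA libraries.

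Levels of different genes were compared as CPM per kilobase of the longest annotated coding transcript. In RNF6 siRNA libraries the order was BTG3 at 93.1 ± 4.62, BTG2 at 71.8 ± 4.82, CNOT8 at 37.5 ± 0.596, TOB1 at 33.2 ± 1.37, TOB2 at 22.5 ± 1.54, CNOT7 at 19.3 ± 0.976, CNOT6 at 14.995 ± 0.714, BTG1 at 12.8 ± 1.88 and CNOT6L at 4.48 ± 0.664 CPM per kb (SD, n = 3). In Control siRNA libraries it was BTG3 at 68.7 ± 6.21, TOB1 at 40.3 ± 2.56, CNOT8 at 34.4 ± 0.792, BTG2 at 21.6 ± 1.41, CNOT6 at 21.1 ± 2.33, CNOT7 at 19.97 ± 1.69, BTG1 at 13.6 ± 0.486, TOB2 at 12.9 ± 0.830 and CNOT6L at 3.14 ± 0.540 CPM per kb. BTG3 was the highest and CNOT6L the lowest in both groups. In Control siRNA libraries BTG2, CNOT6 and CNOT7 did not differ beyond their spread, and neither did BTG1 and TOB2. The order between genes depends on which transcript length is used, above all for CNOT7, whose median coding transcript is 680 nt against 6913 nt for its longest.

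On the same scale the 5 BTG and TOB transcripts summed to 233.4 ± 7.02 CPM per kb in RNF6 siRNA libraries and 157.2 ± 5.20 CPM per kb in Control siRNA libraries, a ratio of 1.48. BTG2 made up 31.1%, 28.7% and 32.4% of that sum in RNF6 siRNA replicates 1, 2 and 3, against 13.1%, 14.8% and 13.4% in Control siRNA replicates 1, 2 and 3. The share of TOB1 was 14.2% ± 0.205 in RNF6 siRNA and 25.7% ± 2.23 in Control siRNA libraries. BTG3 held 39.9% ± 1.5003 in RNF6 siRNA and 43.7% ± 2.48 in Control siRNA libraries, the largest single share in each group. The groups lay far apart for BTG2 and TOB1 and almost touched for BTG3. The shares sum to the whole, so a larger share of BTG2 lowers the others.

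The summed level of the 4 deadenylase transcripts was 76.3 ± 2.03 CPM per kb in RNF6 siRNA and 78.6 ± 5.27 CPM per kb in Control siRNA libraries, and the groups overlapped. Within the CNOT6 and CNOT6L pair, CNOT6L made up 21.5%, 25.9% and 21.6% in RNF6 siRNA replicates 1, 2 and 3, against 13.7%, 12.3% and 12.8% in Control siRNA replicates 1, 2 and 3. Within the other pair, CNOT8 made up 66.0% ± 1.05 in RNF6 siRNA and 63.3% ± 1.503 in Control siRNA libraries. That majority depends on the longest transcript, and with the median transcript length CNOT7 was the higher of the pair. CNOT7 was then at 196.3 and CNOT8 at 111.9 CPM per kb in RNF6 siRNA libraries. In Control siRNA libraries they were at 203.0 and 102.6 CPM per kb. The groups did not overlap in the CNOT6L share by a wide margin, and in the CNOT8 share by a narrow one. With 3 libraries a group an exact permutation test of such a share could not go below p = 0.10, so none is given.

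**Figure D3:**
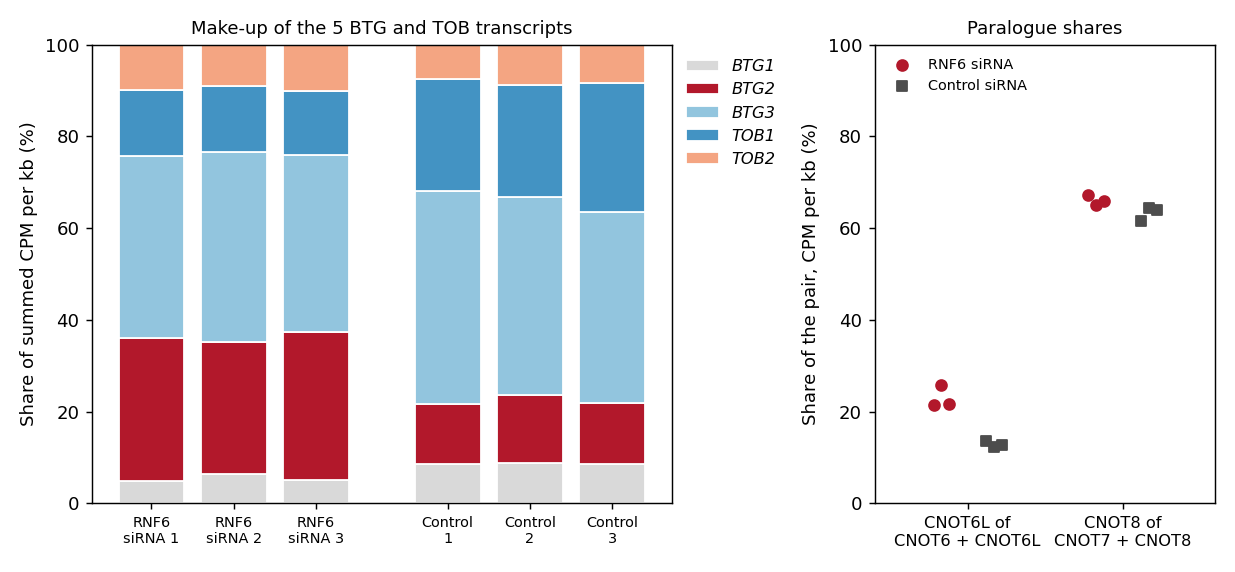
Left, share of each gene in the summed CPM per kb of the 5 BTG and TOB transcripts, 1 bar per library, RNF6 siRNA libraries left of Control siRNA libraries. Right, share of CNOT6L in its pair with CNOT6 and of CNOT8 in its pair with CNOT7, 1 point per library. BTG2 takes 28.7% to 32.4% of the sum in RNF6 siRNA libraries and 13.1% to 14.8% in Control siRNA libraries. Lengths are those of the longest coding transcript, and with the median length CNOT7 lay above CNOT8.

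The 3′ untranslated region (UTR) of the longest coding transcript of each member was searched for an element through which CCR4-NOT can be recruited. Pumilio proteins bind the element TGTANATA and bring the complex to the RNA. Of 12035 tested genes with an annotated 3′ UTR, 29.5% held at least 1 such element. The 3 members that were not called, BTG1, CNOT8 and CNOT7, held 4, 4 and 2 elements. Among the 6 called members, CNOT6L held 1 and the others held 0. This split was seen after the calls were known and was not tested. It takes no account of UTR length, and a longer UTR has more room for matches. The uncalled BTG1, CNOT7 and CNOT8 have 3802, 5756 and 1353 nt of 3′ UTR. Of the called members without a match, BTG3 has 440 nt and TOB1 757 nt. BTG2 has 2164 nt, TOB2 2819 nt and CNOT6 4205 nt, all longer than CNOT8. The counts also depend on the transcript chosen. The longest coding transcripts of CNOT7 and CNOT8 are 6913 and 2708 nt, while their median coding transcripts are 680 and 908 nt. These matches are letters in a UTR and are not shown to be bound. The matches of CNOT8, which has the highest density of them, and that of CNOT6L are shown from GENCODE release 29 transcripts. The element is in capitals, with 8 flanking bases on each side.
CNOT8: tctgaattTGTAAATAagtcttcc
CNOT8: tagtaaaaTGTATATAactcttac
CNOT8: taatgggtTGTAGATActgagtct
CNOT8: aagatgctTGTAAATActatttat
CNOT6L: aattttgaTGTAAATAaaatatct

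The AU-rich pentamer ATTTA, a component of elements bound by the decay factor ZFP36, was present in every member and in 72.3% of the 12035 UTRs searched. It ranged from 0.924 per kb of 3′ UTR in BTG2 to 6.82 per kb in BTG3, beside 2.22 per kb over all 3′ UTRs searched. BTG2 had 2 pentamers in 2164 nt, the lowest density of the 9, and CNOT6L had 26 in 7044 nt.

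Of 8 other CCR4-NOT subunits tested, 1 rose, 1 fell and 6 were not called. That is 25.0% called, near the 32.7% of all genes tested. TNKS1BP1, a tankyrase-binding partner of the complex, rose 1.44-fold, to 107.3 ± 7.79 CPM in RNF6 siRNA libraries against 74.4 ± 4.72 CPM in Control siRNA libraries (adjusted p = 0.00204 in the edgeR fit). CNOT11, which docks on the CNOT1 scaffold, fell 1.25-fold, to 87.8 ± 2.76 CPM against 109.7 ± 1.75 CPM in Control siRNA libraries (adjusted p = 0.0197). CNOT11 was no longer called when RNF6 siRNA replicate 3 (adjusted p = 0.0944) or Control siRNA replicate 3 (0.0897) was left out. With Control siRNA replicate 2 left out, 2 subunits were lower. The scaffold gene CNOT1 was at 372.3 ± 27.5 CPM in RNF6 siRNA and 333.1 ± 33.6 CPM in Control siRNA libraries (adjusted p = 0.255).

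Of 8 tested genes listed as deadenylases outside the complex, 1 was higher and 4 were lower, 62.5% called beside 32.7% of all genes tested. The list follows gene names and families, and whether each product removes poly(A) was not examined. PAN2, the nuclease of the PAN2-PAN3 complex, rose 1.78-fold, to 58.6 ± 1.82 CPM in RNF6 siRNA libraries against 32.9 ± 1.44 CPM in Control siRNA libraries (adjusted p = 8.21e-05 in the edgeR fit). PDE12, which removes poly(A) from mitochondrial RNAs, fell 2.19-fold. TOE1, which trims the ends of small nuclear RNAs, fell 1.72-fold, and other genes' exons cover 23.5% of it. CCRN4L, the older symbol of nocturnin, fell 1.46-fold. The remaining one, named after its value was seen, was PARN, which fell 1.28-fold. PARN was not called when RNF6 siRNA replicate 2 (adjusted p = 0.0560), RNF6 siRNA replicate 3 (0.0990) or Control siRNA replicate 3 (0.0682) was left out. Among 8 poly(A)-binding proteins and their partners, PABPC4 alone was called, 1.29-fold higher, which is 12.5% of the list.

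Of 19 tested genes of decapping and 5′ decay, 4 rose and 1 fell, with a median log2 fold change of 0.11. The share called, 26.3%, was near the 32.7% of all genes tested. PATL1, which bridges deadenylation to decapping, rose 1.91-fold, to 109.7 ± 5.27 CPM in RNF6 siRNA libraries against 57.6 ± 2.47 CPM in Control siRNA libraries (adjusted p = 2.62e-05 in the edgeR fit). LSM14A, a component of processing bodies, rose 1.41-fold and its paralogue LSM14B 1.25-fold. With RNF6 siRNA replicate 3 or Control siRNA replicate 3 left out, 2 genes of the list were higher. LSM1, a subunit of the ring that binds shortened tails, fell 1.39-fold, and other genes' exons cover 38.5% of it. LSM1 was not called when RNF6 siRNA replicate 2 (adjusted p = 0.0560), RNF6 siRNA replicate 3 (0.150) or Control siRNA replicate 2 (0.0599) was left out. LSM14B was not called when RNF6 siRNA replicate 1 (0.102) or 3 (0.0945) or Control siRNA replicate 1 (0.0640) or 3 (0.132) was left out, or with no low-count filter (0.0712). The fourth riser, named after its value was seen, was the decapping enzyme gene DCP2, at 131.7 ± 23.1 CPM in RNF6 siRNA libraries and 93.9 ± 21.1 CPM in Control siRNA libraries. Its groups overlapped, and it was not called when RNF6 siRNA replicate 2 (0.159) or 3 (0.105) or Control siRNA replicate 2 (0.0678) or 3 (0.122) was left out.

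Of 17 tested genes for RNA-binding proteins that recruit CCR4-NOT, 1 was higher and 4 were lower, 29.4% called and near the 32.7% of all genes tested. ZFP36, the protein that binds AU-rich elements, fell 1.85-fold, to 52.2 ± 6.37 CPM in RNF6 siRNA libraries against 96.7 ± 4.18 CPM in Control siRNA libraries (adjusted p = 9.35e-05 in the edgeR fit). The lower count was 2 when RNF6 siRNA replicate 1 or 3 or Control siRNA replicate 3 was left out, and 6 when Control siRNA replicate 2 was left out. The higher count was 2 when replicate 1 of either group was left out, so without RNF6 siRNA replicate 1 both counts were 2. CPEB4, which binds cytoplasmic polyadenylation elements, fell 1.86-fold, while its relative CPEB2 rose 1.74-fold at a low level of 6.37 CPM against 3.68 CPM in Control siRNA libraries. ZFP36L1 fell 1.22-fold, and was not called when RNF6 siRNA replicate 1 (adjusted p = 0.0786) or 3 (0.105) or Control siRNA replicate 3 (0.0744) was left out, or with no low-count filter (0.0575). The fourth, named after its value was seen, was RC3H1, which encodes the stem-loop binding protein roquin and fell 1.33-fold. RC3H1 was not called when RNF6 siRNA replicate 1 (0.0922), 2 (0.0746) or 3 (0.0872) or Control siRNA replicate 1 (0.0928) or 3 (0.0651) was left out.

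Of 17 known partners and regulators of BTG and TOB proteins, 1 was higher and 6 were lower, 41.2% called beside 32.7% of all genes tested. HOXB9, a homeobox protein that binds BTG1 and BTG2, rose 1.64-fold, to 29.2 ± 1.94 CPM in RNF6 siRNA libraries against 17.8 ± 1.49 CPM in Control siRNA libraries (adjusted p = 8.18e-04 in the edgeR fit). The cyclin D1 gene CCND1, whose expression BTG2 and TOB1 are known to repress, fell 1.81-fold. FOXO1, of the forkhead family whose members are known to induce BTG1, fell 1.49-fold. Leaving out Control siRNA replicate 1 gave 4 higher, and leaving out RNF6 siRNA replicate 1 gave 2. The lower count was 4 without replicate 3 of either group, and 5 without any other single library. The median log2 fold change of the list was 0.08, above 0 although more of its genes were called lower.

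**Figure D4:**
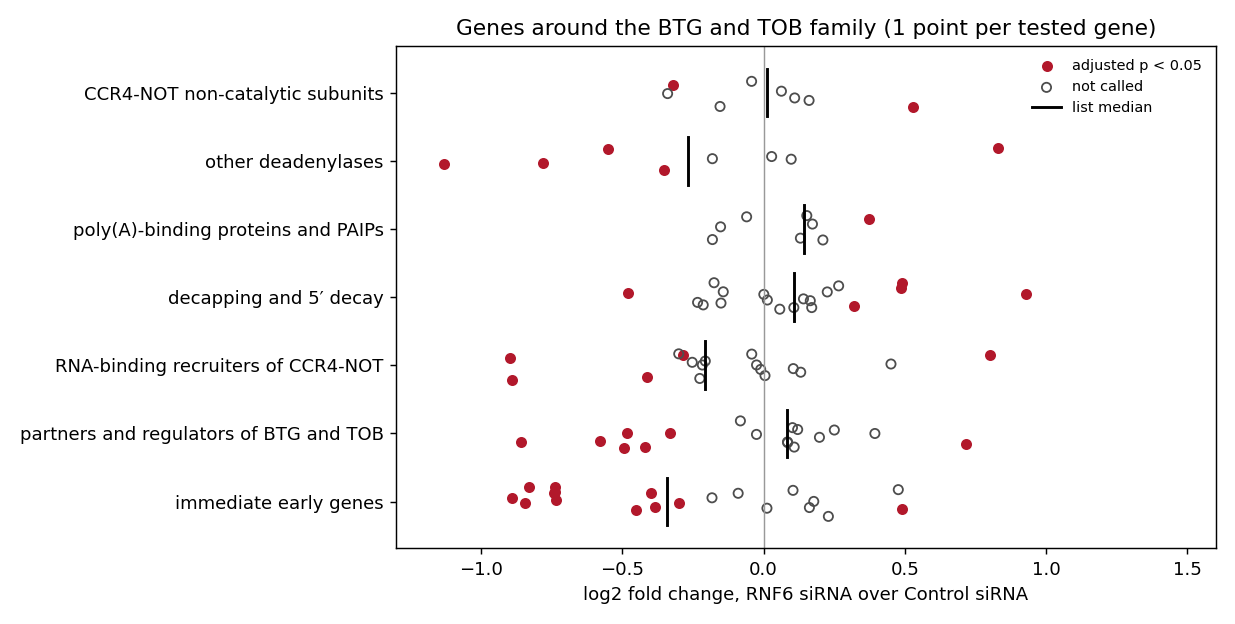
Log2 fold change, RNF6 siRNA over Control siRNA, of each tested gene in the lists around the family, with filled red points for an adjusted p below 0.05 and a bar at each list's median. Immediate early genes have a median of −0.34 and poly(A)-binding proteins and their partners one of 0.14.

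Of 20 immediate early genes, which are induced soon after growth stimuli, all were tested, and 11 were lower and 1 higher, with a median log2 fold change of −0.34. MYC fell 1.85-fold, to 119.3 ± 15.7 CPM in RNF6 siRNA libraries against 221.3 ± 18.7 CPM in Control siRNA libraries (adjusted p = 9.41e-05 in the edgeR fit). KLF4, KLF10 and SRF, which encode transcription factors, fell 1.80-fold, 1.66-fold and 1.78-fold. The 1 that was higher, named after its value was seen, was the phosphatase gene DUSP1, at 1.40-fold, and it was not called when RNF6 siRNA replicate 2 was left out (adjusted p = 0.0769). Leaving out 1 library gave 8 to 11 lower, the fewest without RNF6 siRNA replicate 3. In all, 60.0% of the list was called, beside 32.7% of all genes tested.

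The genes with values most like those of BTG2 were found among 11735 others with a mean of at least 5 CPM, by the root mean square difference of centred log2 CPM over the 6 libraries. Among the 5 most alike were ARHGAP19 at a difference of 0.106, INPP5D at 0.142, the splicing factor gene WBP11 at 0.149 and the steroid reductase gene SRD5A1 at 0.156. ARHGAP19 was at 140.3 ± 4.79 CPM in RNF6 siRNA libraries and 40.9 ± 2.096 CPM in Control siRNA libraries, a fold of 3.43. The measure covers 6 libraries in 2 groups, so it mainly compares the size of the step between groups, and 24.1% of ARHGAP19 lies under exons of other genes.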

How the data were processed

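Per the labels, total RNA was extracted with Trizol and libraries were made with an Illumina TruSeq RNA kit. The authors deposited 1 table of raw read counts per gene symbol and library. Per the submitters' processing notes, TopHat2 2.0.11 and HTSeq were used on hg19. Strand setting and annotation release were not stated in the sources used here. Rows that name no gene held 27.3% to 29.4% of the listed reads and were left out.

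Counts were fitted in R 4.3.3 with edgeR 4.0.16 (filterByExpr with a minimum count of 10 and total of 15, TMM factors of 0.985 to 1.02, robust quasi-likelihood test on group, two-sided). P-values were Benjamini-Hochberg adjusted over all 14685 genes tested, and all adjusted p-values without another tool's name come from this fit or, where a library was left out, a refit of it. CPM values use tested reads and TMM. Fold changes are RNF6 siRNA over Control siRNA, at edgeR's prior count of 0.125. The SE was derived from the quasi-likelihood F, as the size of the log2 fold change over the root of F.

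The members and lists were chosen with earlier results of these data known. Named genes are RNF6, the members, BTG4, up to 4 called genes per list by adjusted p, the most abundant gene of each marker list, and 5 genes most like BTG2. Other names are given as completing a count or as marking the check of the cell label. Transcript lengths, UTRs and overlaps come from GENCODE release 29 on GRCh38, a different build from that of the counts, and promoters from RefSeq on GRCh38.p14. Alternatives used DESeq2 1.42.0 and limma 3.58.1. Some results under these rules are not reported here, among them those of another list of genes known to be induced together with BTG2.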

Additional observations from a re-analysis of the deposited data

How the results depend on the processing

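BTG2, TOB2 and CNOT6 kept their direction and call under all 12 alternatives, with log2 fold changes of 1.68 to 1.78, 0.76 to 0.85 and −0.56 to −0.41. BTG1 and CNOT8 kept their direction and stayed uncalled. Leaving out 1 library gave 2 to 4 members higher and 1 to 2 lower, and 1514 to 2910 of all genes higher and 1478 to 2967 lower. The fewest higher, 1514, came without Control siRNA replicate 3, and the fewest lower, 1478, without RNF6 siRNA replicate 3. Only 1 member, CNOT6, was lower with upper-quartile scaling, without the filter on low counts, with DESeq2 or with a replicate block, since TOB1 was then not called. Leaving out 1 library gave CNOT7 a log2 fold change of −0.10 to 0.011, reversed without Control siRNA replicate 1 (adjusted p = 0.952, SE 0.105). Adjusted p ranged over the alternatives from 5.13e-04 to 0.0610 for BTG3, 0.0347 to 0.207 for TOB1 and 4.99e-04 to 0.0882 for CNOT6L.

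Replicate numbers did not pair the libraries: deviations of same-numbered libraries correlated at −0.46, −0.25 and 0.05. Those of differently numbered libraries correlated at −0.24 to 0.46, the highest for RNF6 siRNA replicate 1 with Control siRNA replicate 2. With the replicate block, 1421 genes were higher and 1321 lower, and adjusted p was 0.175 for TOB1, 0.0797 for CNOT6L, both then uncalled. So were CNOT11 (0.113), PARN (0.0950), PABPC4 (0.0620), LSM1 (0.0629), LSM14B (0.133), DCP2 (0.117), ZFP36L1 (0.126), RC3H1 (0.127), DUSP1 (0.0725), COL1A1 (0.0969) and VWF (0.0814). The cause was not tested.

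With the median in place of the longest transcript, Control siRNA levels in CPM per kb were 24.6 for BTG1, 48.6 for TOB1, 22.1 for TOB2, 6.92 for CNOT6L, 203.0 for CNOT7 and 102.6 for CNOT8. Counting error is largest for CNOT6L, the member with fewest reads.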
